A study of Homo sapiens with 4 samples.

Results

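The genes described here control the G1 phase of the cell cycle: the D-type cyclins CCND1, CCND2 and CCND3, the kinases CDK4 and CDK6, the inhibitors CDKN1A, CDKN1B and CDKN2C, the pocket protein gene RB1 and the transcription factor gene MYC. They were taken by name, as every probe set whose platform annotation gives one of these 10 genes. That found 21 probe sets for 9 of the genes, out of 54675 probe sets and 19775 named genes in all. No probe set is named CDKN2C in the annotation used, so that gene was not analysed here. Each of the 9 genes was above the signal floor defined below on all 4 arrays, and each was tested.

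In G1, D-type cyclins bind CDK4 or CDK6, and the active kinases phosphorylate the RB1 protein, which then releases E2F transcription factors that drive genes of DNA synthesis. CDKN1A (p21) and CDKN1B (p27) bind cyclin-kinase complexes and restrain CDK2, while CDKN2C (p18) belongs to the INK4 family that blocks CDK4 and CDK6. MYC promotes growth and cell cycle entry. In melanoma this axis is often altered, and CCND1 transcription is a known output of the MAPK pathway.

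Expression was measured in M14, an established human melanoma cell line, on 1 Affymetrix whole-genome array for each of 4 groups. Cells were stably transfected with pIRES2 alone, called the empty vector, or with pIRES2 that also encodes ARHGAP8, FLAG-tagged and from a variant that lacks one exon. Both plasmids carry eGFP, and both lines were selected with G418, sorted for eGFP and cultured in G418 and fetal bovine serum. Each line was grown for 4 days, either in 2D on plastic coated with collagen and harvested before confluence, or in 3D inside growth factor-reduced Matrigel, a basement membrane gel. There was 1 line per plasmid and 1 array per line and culture, so nothing measures the spread between separately made lines or cultures.

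The 4 probe sets annotated to ARHGAP8 are also annotated to a readthrough gene, and their signals lay between 4.02 and 14.8, under the floor on every array. They do not check the labels, and the second line is called the line labelled ARHGAP8. Of 10 named markers of the melanocyte lineage, 9 were above the floor on all 4 arrays, among them MITF, SOX10, MLANA and TYR, while PMEL was below it on all. The summed signal of these markers was 10145, 6975, 10950 and 10613 on the arrays of the empty-vector line in 2D, the ARHGAP8 line in 2D, the empty-vector line in 3D and the ARHGAP8 line in 3D. Leukocyte PTPRC, endothelial VWF, epithelial EPCAM and fibroblast PDGFRA were below the floor on all 4. Other members of these lists were above it on all 4: fibroblast COL1A1, COL1A2, DCN and FAP, leukocyte CD2, and endothelial PECAM1 at 268 to 343. Epithelial markers, 2 of 8 of them above the floor on all arrays, moved with the culture in opposite directions. KRT18 was lower in gel, at 729 and 944 in 2D and 313 and 458 in 3D for the empty-vector and ARHGAP8 lines, and KRT8 was higher, at 119 and 128 against 167 and 156. The summed signal of 593 to 1189 follows KRT18. Their part in the culture results was not tested. Fibroblast markers (4 of 9 above the floor on all arrays) summed to 714 to 1043, leukocyte markers (1 of 5) to 187 to 218 and endothelial markers (1 of 5) to 407 to 484. The ARHGAP8 3D array stood apart in its control probe sets, with a median 18S ribosomal RNA signal of 626 against 27.7 to 49.4 elsewhere. The signal ratio of the 3' to the 5' probe set of ACTB was 1.05 to 1.10 in 2D and 1.23 to 1.32 in 3D, while that of GAPDH was 0.874 to 0.899 in 2D and 0.901 to 0.925 in 3D. The part of RNA quality in the culture results was not tested.

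Signals are linear intensities scaled to a common trimmed mean, and the floor is their median, 72.3. Ratios are differences of log2 signals after values below the floor were raised to it. Where a gene had several probe sets, the one with the highest mean log2 signal stands for it, and the others are given beside it. Signals of different genes were not compared, since probe sets differ in response. The test, run in limma over 13239 genes, fitted culture and plasmid as 2 additive terms and uses the repeat of the culture ratio in the other line, and of the line ratio in the other culture, as its replication. Errors are moderated standard errors (SE) over 4 arrays, drawn mostly from genes of like signal. Where the repeats disagree they are smaller than the gene's own SE, which has 1 degree of freedom.

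The first comparison was 3D against 2D culture. CCND1 and CCND3 were the members that passed, both lower in gel. In the main probe sets of 5 of the 9 genes, CCND1, CCND2, CCND3, CDK4 and CDK6, both 3D arrays lay below both 2D arrays, an order found in 22.7% of all genes tested. CCND2, CDK4 and CDK6 did not pass. For 3 genes, CDKN1A, CDKN1B and MYC, both 3D arrays lay above both 2D arrays, as did 27.5% of all genes. None of these 3 passed, and RB1 followed neither order. Against the 2 of 9 members called lower in limma, 4.15% of all genes tested were called lower and 2.83% higher. At an unadjusted p under 0.05 there were 6 of the 9, and 21% of all genes. In whole cultures, fewer cells expressing a gene and less RNA per cell cannot be told apart.

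**Figure D1:**
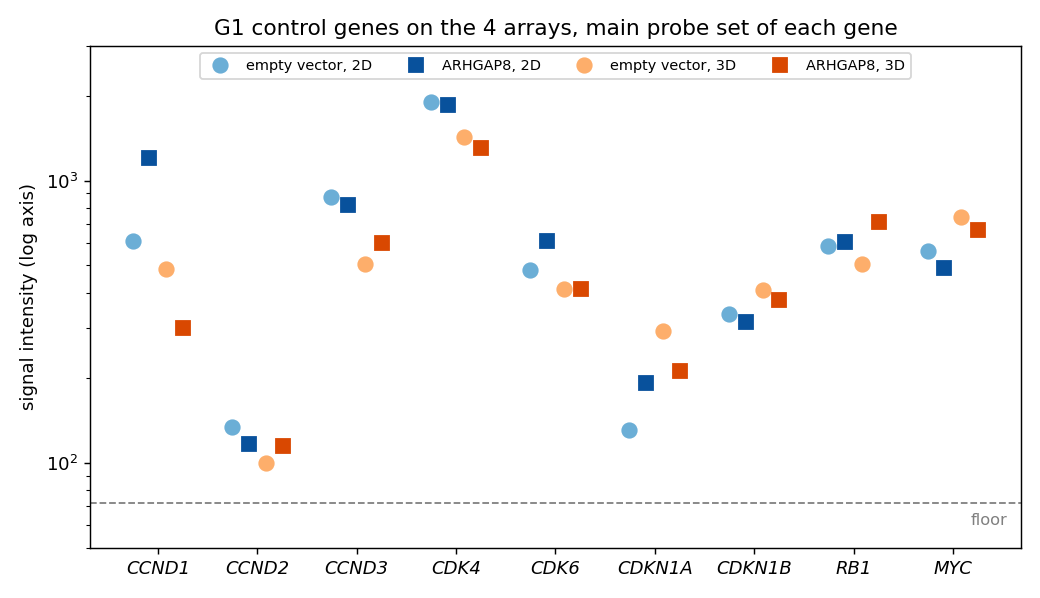
Signal intensity (log axis) of the main probe set of 9 G1 control genes on each of the 4 arrays, with circles for the empty-vector line, squares for the line labelled ARHGAP8, blue for 2D and orange for 3D. The dashed line is the floor of 72.3. CCND1 spans the widest range, from 299 to 1205, and every point lies above the floor.

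CCND1, the D-type cyclin most often linked to mitogen signals, had signals of 611 (2D) and 486 (3D) in the empty-vector line. In the line labelled ARHGAP8 they were 1205 (2D) and 299 (3D). The highest and the lowest value both came from the line labelled ARHGAP8. CCND1 fell in 3D by 1.17 ± 0.25 log2 (moderated SE, n = 4 arrays), or 2.25-fold, and limma gave it a Benjamini-Hochberg adjusted p of 0.00590. The ratios behind this were -0.33 in the empty-vector line and -2.01, a 4.02-fold difference, in the line labelled ARHGAP8. The lines had the same sign and different sizes, and the gene's own SE from that gap is 0.84. Without the ARHGAP8 3D array the value is the empty-vector ratio of -0.33, which has no test. The call was lost under 5 of 11 alternatives, with adjusted p-values in limma from 0.0614 after quantile normalization to 0.769 without a filter on dim genes.

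The second probe set of CCND1, 208711_s_at, gave signals of 508 (2D) and 373 (3D) in the empty-vector line and of 678 (2D) and 420 (3D) in the other. Here too the ARHGAP8 2D array was highest, but the lowest was the empty-vector 3D array. Its 3D over 2D ratios were -0.44 and -0.69, and in a fit over all probe sets it was lower by 0.57 ± 0.18 log2 without passing (adjusted p 0.0959 in limma). Both probe sets were therefore lower in gel in both lines. Their 3D over 2D ratios differed by more than 1 log2 unit only in the line labelled ARHGAP8. With the mean of both, CCND1 was at -0.87 and not called (limma, adjusted p 0.172).

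CCND3, another D-type cyclin that activates CDK4 and CDK6, had signals of 874 (2D) and 505 (3D) for empty vector, and of 822 (2D) and 599 (3D) in the line labelled ARHGAP8. Both 3D arrays lay below both 2D arrays. The log2 ratio of the line labelled ARHGAP8 over empty vector was -0.09 in 2D and 0.25 in 3D. CCND3 fell by 0.62 ± 0.17 log2, a 1.54-fold difference, with ratios of -0.79 and -0.46 (adjusted p 0.0248 in limma). Without the ARHGAP8 3D array its value is -0.79, with no test. The call was lost under 6 of 11 alternatives, with adjusted p-values in limma from 0.0558 to 0.540. Its other probe set, 1562028_at, was above the floor only on the ARHGAP8 3D array, at 97.3, and gives no ratio between measured values. The mean of both, -0.20, did not pass (adjusted p 0.540 in limma) and mixes a measured with an unmeasured probe set.

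For CCND3 RefSeq gives 3 start sites on GRCh38.p14. The window shown, 250 bases before to 50 after a start site, is chr6:41941759-41942058 on the minus strand, chosen because it holds both GC boxes and a CCAAT box, in capitals. These are the letters GGGCGG and CCAAT, searched on both strands.
CCND3: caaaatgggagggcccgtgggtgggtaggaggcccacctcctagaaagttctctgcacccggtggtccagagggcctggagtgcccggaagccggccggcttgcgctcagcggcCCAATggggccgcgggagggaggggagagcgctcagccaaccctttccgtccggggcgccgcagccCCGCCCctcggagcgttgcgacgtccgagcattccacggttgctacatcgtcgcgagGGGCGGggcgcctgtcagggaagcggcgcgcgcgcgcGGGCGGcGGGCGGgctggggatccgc
It has 4 GC boxes and 1 CCAAT box. Of 35116 RefSeq promoter windows of this length, 45% hold at least 1 GC box and 34.6% at least 1 CCAAT box, so each motif is common. A count of 4 or more GC boxes is found in 9.06%. Because the window was chosen for its motifs, these shares cannot show its counts to be unusual. The other CCND3 windows differ: chr6:41939156-41939455 holds 0 GC boxes and 1 CCAAT box, and chr6:42048639-42048938 holds 5 and 0. Which start site M14 cells use is not known.

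CCND2, the remaining D-type cyclin, lay close to the floor. Its main probe set gave signals of 134 and 116 in 2D and of 99.5 and 115 in 3D for the empty-vector and ARHGAP8 lines. The ARHGAP8 arrays of both cultures were nearly equal. Its difference of -0.23 ± 0.25 log2 did not pass (adjusted p 0.665 in limma). A second probe set, 231259_s_at, went the other way, with ratios of 0.32 and 0.22. Of the other 2 probe sets, 200953_s_at was above the floor on 1 array, at 78.8, and 200951_s_at on none, with signals of 8.29 to 9.45. No direction can thus be given for CCND2.

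CDK4, the kinase partner of the D-type cyclins, had signals of 1900 and 1855 on the empty-vector and ARHGAP8 2D arrays and of 1432 and 1308 on the 3D arrays. The ratios of the lines were close to each other, -0.41 and -0.50. The fitted difference of -0.46 ± 0.16 log2, 1.37-fold lower, nevertheless did not pass (adjusted p 0.0927 in limma), and it lay below 0 under all 11 alternatives without passing under any. CDK4 has 1 probe set.

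The promoter window of CDK4, at chr12:57752261-57752560 on the minus strand of GRCh38.p14, is shown because MYC was measured beside it and CDK4 is a textbook MYC target. E-boxes with the letters CACGTG, to which MYC binds with MAX, and GC boxes are in capitals.
CDK4: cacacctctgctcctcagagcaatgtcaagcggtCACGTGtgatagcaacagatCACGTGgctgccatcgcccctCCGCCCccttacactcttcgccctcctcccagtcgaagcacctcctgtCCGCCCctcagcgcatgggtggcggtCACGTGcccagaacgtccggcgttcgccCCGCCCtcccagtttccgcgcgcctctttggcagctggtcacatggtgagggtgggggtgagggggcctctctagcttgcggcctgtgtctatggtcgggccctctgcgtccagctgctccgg
E-boxes begin at -216, -196 and -101 relative to the start site, and 3 GC boxes lie between and after them. An E-box of these letters is found in 7.26% of all windows, and 3 or more in 0.0940%. Matches of letters show no binding. CDK4 and MYC had ratios of opposite sign in both lines.

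CDK6, the other cyclin D kinase, has 7 probe sets, of which 6 were tested and 5 were above the floor on all 4 arrays. Its main probe set, 224851_at, read 484 (2D) and 413 (3D) for empty vector, and 610 (2D) and 412 (3D) in the other line. The ARHGAP8 2D array was high and the 3D arrays were alike. The difference of -0.40 ± 0.18 log2 did not pass (adjusted p 0.199 in limma). The next brightest, 224847_at, had ratios of -0.27 and -0.96, and 224848_at had -0.01 and -0.41. The dimmer 207143_at and 231198_at, were lower in gel in the empty-vector line (-0.56 and -0.24) and higher in the line labelled ARHGAP8 (0.06 and 0.17). For 235287_at the ratios were -0.13, with the empty-vector 3D array under the floor, and -0.34. The last, 243000_at, was above the floor only on the ARHGAP8 2D array, at 104, and gives no ratio between measured values. None of the 6 tested passed for the culture in the fit over all probe sets.

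**Figure D2:**
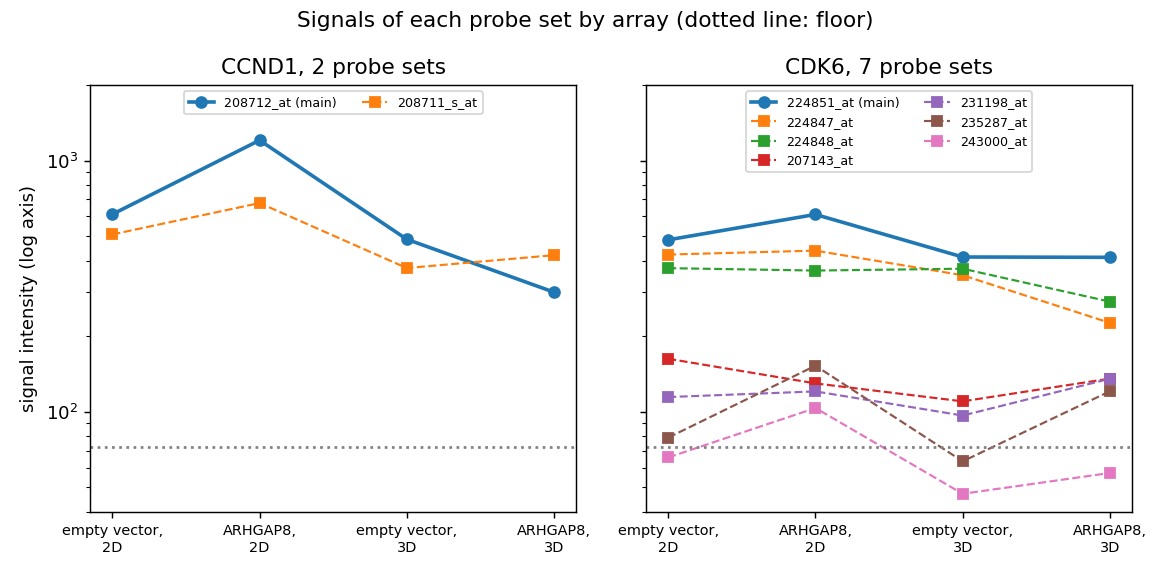
Signal intensity (log axis) of every probe set of CCND1 (left) and CDK6 (right) on the 4 arrays, with the main probe set as a solid line and the floor of 72.3 dotted. The lines join values of 1 probe set and are no time course. The CCND1 probe sets lie farthest apart on the ARHGAP8 2D array, at 1205 and 678, and change order on the ARHGAP8 3D array, at 299 and 420, and the CDK6 probe sets do not share one order of the arrays.

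CDKN1A, the inhibitor p21 and a classic p53 target, had signals of 130 and 191 in 2D and of 293 and 211 in 3D for the empty-vector and ARHGAP8 lines. The empty-vector line held both extremes, and the arrays of the line labelled ARHGAP8 lay close together between them. The 3D over 2D ratio was 1.17 in the empty-vector line, 2.25-fold, and 0.14 in the line labelled ARHGAP8. The fitted difference of 0.66 ± 0.26 log2 did not pass (adjusted p 0.145 in limma), and the gene's own SE was 0.51. The empty-vector ratio uses neither ARHGAP8 array and exceeded that of 98.9% of genes tested.

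CDKN1B, the inhibitor p27, was the member whose culture ratios agreed best between the lines. Its signals were 337 and 315 in 2D and 410 and 379 in 3D, giving ratios of 0.28 and 0.27. The difference of 0.27 ± 0.19 log2 did not pass (adjusted p 0.436 in limma), although the gene's own SE was 0.01. Most of its moderated SE comes from other genes of like signal. A change of this size was within the error the fit assigns.

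The promoter windows of the inhibitors are shown to set p21 and p27 side by side, at chr6:36678464-36678763 and chr12:12717118-12717417, both on the plus strand of GRCh38.p14, with GC boxes and CCAAT boxes in capitals.
CDKN1A: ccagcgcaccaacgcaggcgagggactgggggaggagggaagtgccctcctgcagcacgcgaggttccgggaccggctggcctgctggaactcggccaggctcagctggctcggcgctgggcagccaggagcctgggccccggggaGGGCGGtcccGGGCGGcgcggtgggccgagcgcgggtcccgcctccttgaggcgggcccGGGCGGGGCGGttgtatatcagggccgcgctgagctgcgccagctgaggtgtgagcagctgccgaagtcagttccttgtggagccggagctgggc
CDKN1B: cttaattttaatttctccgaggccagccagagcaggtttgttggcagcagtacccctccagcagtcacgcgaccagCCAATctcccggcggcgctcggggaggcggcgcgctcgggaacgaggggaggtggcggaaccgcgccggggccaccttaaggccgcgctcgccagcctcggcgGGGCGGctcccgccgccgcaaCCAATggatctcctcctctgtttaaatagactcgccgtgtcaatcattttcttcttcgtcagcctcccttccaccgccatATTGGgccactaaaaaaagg
CDKN1A holds 4 GC boxes, of which those at -45 and -40 share a base, and no CCAAT box in either orientation. CDKN1B holds 1 GC box at -71 and 3 CCAAT boxes, at -174, -50 and 31. Across all windows 9.06% hold 4 or more GC boxes and 3.26% hold 3 or more CCAAT boxes. Neither window holds the E-box letters.

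RB1, the target of the cyclin D kinases, had signals of 585 and 605 in 2D and of 504 and 716 in 3D. The ARHGAP8 3D array was highest and the empty-vector 3D array lowest, so the culture ratios were -0.22 and 0.24 and the fitted difference was 0.01 ± 0.17 log2 (adjusted p 0.975 in limma). The dimmer probe set 211540_s_at read 167, 135, 197 and 177 and was higher in gel in both lines, by 0.24 and 0.39. The probe sets do not settle a direction.

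MYC had signals of 561 and 491 in 2D and of 743 and 669 in 3D for the empty-vector and ARHGAP8 lines. Within each culture the line labelled ARHGAP8 was a little lower, and each line was higher in gel. The ratios were 0.41 and 0.44. MYC was higher by 0.43 ± 0.16 log2, 1.34-fold, without passing (adjusted p 0.132 in limma). It has 1 probe set, and its value stayed above 0 under all 11 alternatives.

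**Figure D3:**
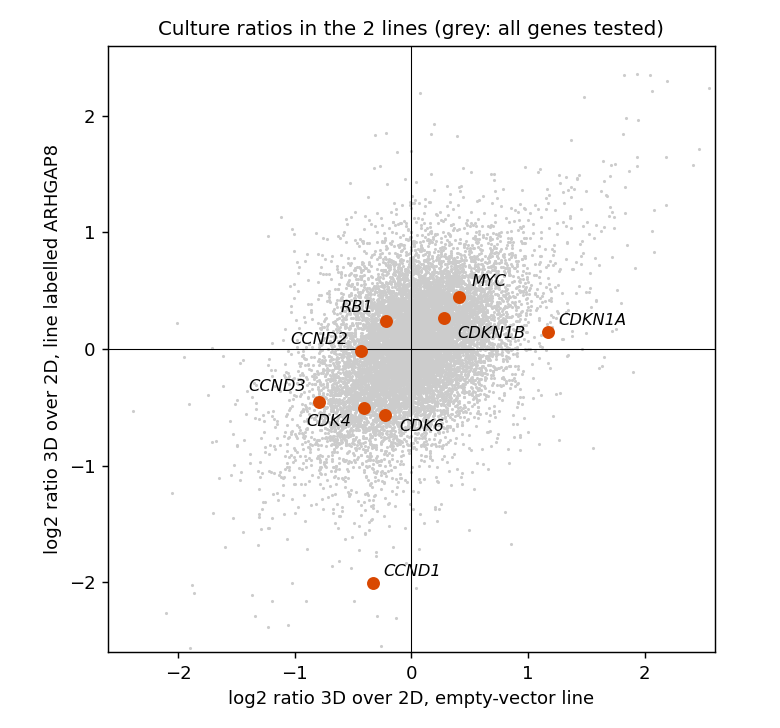
Log2 ratio of 3D over 2D in the empty-vector line (x) and in the line labelled ARHGAP8 (y) for 9 G1 control genes (orange) and all 13239 genes tested (grey, 6 of them outside the axes). CCND1 lies far below the others at -0.33 and -2.01, and CDKN1A lies to the right at 1.17 and 0.14.

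By size alone, 1 of the 9 genes, CDKN1A, differed at least 2-fold between the cultures in the empty-vector line, where 3.02% of all genes did. In the line labelled ARHGAP8 it was CCND1 alone, where 3.77% of all genes did. The median culture difference of the 9 genes was -0.23, against 0.03 over all genes tested.

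The second comparison set the line labelled ARHGAP8 against the empty-vector line. Of the 9 genes, 0 passed in limma, and 0 had an unadjusted p under 0.05. Over all genes 0.128% passed, and 8.14% had an unadjusted p under 0.05, so none among 9 is near that share. No gene differed at least 2-fold in 2D, where 0.461% of all genes did, or in 3D, where 2.44% did. The nearest was CCND1 in 2D, 1.97-fold higher in the line labelled ARHGAP8.

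The fitted line differences ran from -0.17 ± 0.16 log2 for MYC to 0.28 ± 0.17 for RB1. For CCND1 the value was 0.14 ± 0.25, an average of 0.98 in 2D and -0.70 in 3D. CDKN1A gave 0.04 ± 0.26 from 0.56 and -0.47. For 5 of the 9 genes, CCND1, CCND2, CCND3, CDK6 and CDKN1A, the line ratios had opposite signs in 2D and 3D, as they did for 45% of all genes tested. CDK4, CDKN1B and MYC were slightly lower in the line labelled ARHGAP8 in both cultures, at -0.03 and -0.13, -0.10 and -0.12, and -0.19 and -0.15. RB1 was higher in both, by 0.05 and 0.51. Its second probe set read -0.31 and -0.16, the opposite.

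One dim CDK6 probe set, 235287_at, was higher in the line labelled ARHGAP8 in both cultures. Its signals were 78.9 and 153 in 2D and 63.5 and 121 in 3D, giving 0.95 in 2D and at least 0.74 in 3D, where the empty-vector array was under the floor. The fitted 0.85 ± 0.23 log2 did not pass (adjusted p 0.380 in limma), and the main CDK6 probe set read 0.34 and -0.00.

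A further comparison set the line ratio in gel against that on plastic. With 1 array per group this gives values without a test. The 3D minus 2D difference of the line ratios was -1.68 for CCND1 and -1.03 for CDKN1A, larger in size than in 99.6% and 96.2% of genes tested. The other 7 genes lay between -0.34 and 0.46. For CDKN1B it was -0.02 and for MYC 0.04. The CCND1 value combines 0.98 in 2D with -0.70 in 3D, so it rests on both arrays of the line labelled ARHGAP8. The second probe set read 0.42 and 0.17 and gave -0.24, and the mean of both -0.96.

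**Figure D4:**
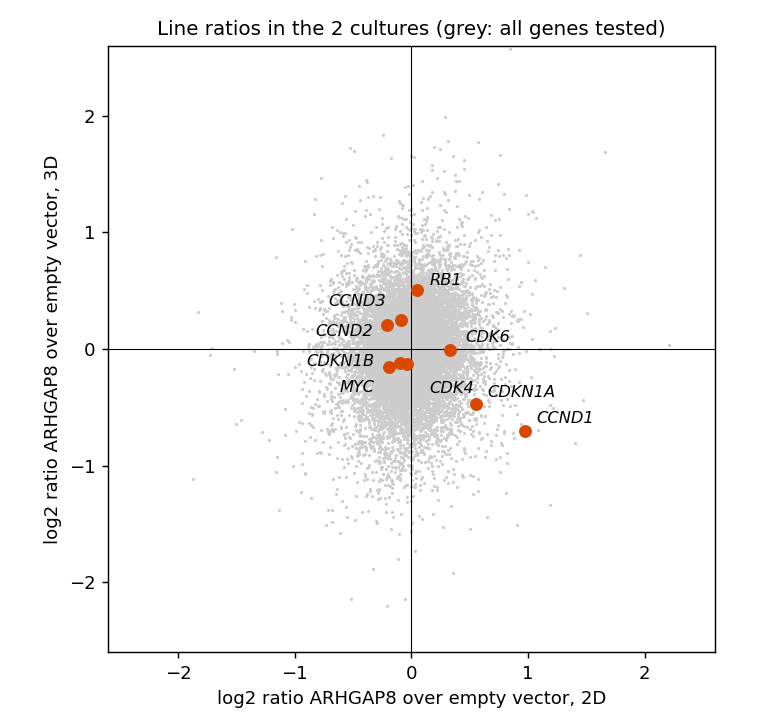
Log2 ratio of the line labelled ARHGAP8 over the empty-vector line in 2D (x) and in 3D (y) for 9 G1 control genes (orange) and all 13239 genes tested (grey, 1 of them outside the axes). CCND1 (0.98 and -0.70) and CDKN1A (0.56 and -0.47) lie at the lower right.

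By the distance between centred log2 signals on the 4 arrays, the genes most like CCND1 were NUP188, DKK1 and CREB3, at root mean square distances of 0.13, 0.13 and 0.16. DKK1, a secreted Wnt antagonist, read 189 and 429 in 2D and 134 and 96.2 in 3D for the empty-vector and ARHGAP8 lines. NUP188 read 261, 419, 211 and 122. The genes nearest to CCND3 were BLOC1S2, HMGB3P1 and PPP1CA, each at 0.02. With 4 arrays such likeness is a description only.

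The other genes of the pathway were taken from lists made with earlier results of these data known, and each count stands beside the 4.15% of all genes called lower and 2.83% called higher. The list of cyclin E, cyclin A and CDK2 also held CDC25A, CDK7, CCNH, MNAT1, CCNC and CDK8. Of its 10 genes tested, 1 fell in 3D and 0 rose. That was CCNE2, an E-type cyclin, by 1.32 ± 0.20 log2. CCNA2 was at -0.38 and CDC25A, a phosphatase that activates CDK2, at -0.58, neither passing. CCNE1 was at -0.23 (ratios of -0.63 and 0.17) and CDK2 at -0.19 (-0.57 and 0.20), also without passing. Of 4 other CDK inhibitor genes tested, CDKN3, a phosphatase of CDK2, fell by 0.86 ± 0.17 (adjusted p 0.00318 in limma). CDKN2A, the INK4 inhibitor p16 and ARF locus, read 722 and 853 in 2D and 976 and 1176 in 3D and was higher by 0.45 ± 0.16 without passing (adjusted p 0.0927 in limma). CDKN2B and CDKN2D were at 0.17 and 0.14.

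The RB1 relatives moved apart. RBL2 (p130), the pocket protein of resting cells, rose by 0.87 ± 0.17 log2, from 347 and 402 in 2D to 589 and 789 in 3D (adjusted p 0.00322 in limma). RBL1 (p107) fell by 0.79 ± 0.20, from 440 and 423 to 236 and 263 (adjusted p 0.0158 in limma). E2F3 and the E2F partner TFDP1 fell by 0.64 and 0.58. E2F1 was at -0.66 without passing. In all 1 of 12 genes of the list rose and 3 fell. After quantile normalization the list had 0 lower calls and after cyclic loess 1, and 4 of 10 alternatives left none.

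Genes that E2F activates were lower as a group, 13 of 24 falling and 0 rising, with a list median of -0.65 against 0.03 over all genes. With the mean of probe sets the list kept 1 lower call, and without a filter on dim genes 0. CDC6, which licenses replication origins, fell by 1.11, and MCM5 was at -0.53 without passing. Of 7 genes of the MuvB and DREAM list, MYBL2, FOXM1 and MYBL1 fell, the last by 0.74. MYBL2 is also counted in the E2F list. LIN9 was at -0.68, LIN37 at 0.31 and RBBP4 at -0.26, none of them passing. Of 15 S and M phase cyclins and kinases 5 fell and 0 rose, with a median of -0.34. None of these calls was kept with the mean of probe sets or without a filter. The proliferation marker MKI67 fell by 0.92 ± 0.17, but the list did not move as a whole. TOP2A was at -0.01, CDK1 at -0.09 and WEE1 at 0.15, none of them passing.

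SKP2, the ubiquitin ligase subunit that targets p27, fell by 0.96 ± 0.18 log2, with signals of 1108 and 975 in 2D and of 438 and 649 in 3D (adjusted p 0.00208 in limma). CUL1, the scaffold of the same ligase, fell by 0.69 (adjusted p 0.0494 in limma), with ratios of -0.32 and -1.05. They were the only 2 of 13 genes of the turnover list that passed. At most 1 of the list passed under 9 of the 10 alternatives run for it.

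Of 11 genes encoding partners of MYC, MXD1, an antagonist that competes for MAX, rose by 1.00 ± 0.27 log2 (adjusted p 0.0308 in limma), from 91.4 and 82.8 in 2D to 124 and 242 in 3D. The list had 1 call under 2 of 10 alternatives and 0 under the other 8. Its median was 0.28. Of 22 MYC-activated genes 5 fell and 0 rose, with a median of -0.24. With the mean of probe sets that list kept 1 lower call, and without a filter on dim genes 0. ODC1 of polyamine synthesis fell by 1.29, the spermidine synthase gene SRM by 0.86 and the ribosome assembly gene RRS1 by 0.74. MYC itself was at 0.43, above 0, while these genes fell.

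Of 20 p53-activated genes 1 rose and 1 fell, with a median of -0.04. CCNG1 rose by 0.64 ± 0.16 log2 and AEN fell by 0.89 ± 0.25. The higher call was lost under 3 and the lower one under 7 of 10 alternatives. Of the genes that did not pass, TP53I3 was at -0.66 with ratios of -1.09 and -0.24, CDKN1A at 0.66, and GADD45A at 0.49 with ratios of 0.88 and 0.09. Of 13 genes in the list of FOXO factors and their targets 6 rose and 0 fell, although the median was only 0.23. CCNG2, an atypical cyclin linked to cell cycle arrest, rose by 1.92 ± 0.21 log2, from 109 and 196 in 2D to 497 and 614 in 3D. SESN3 rose by 1.21, BCL6 by 1.03 and TXNIP by 1.03. The FOXO list had 0 calls under 2 of 10 alternatives, the mean of probe sets and no filter on dim genes. CDKN1B, a known FOXO target, did not pass, as above.

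**Figure D5:**
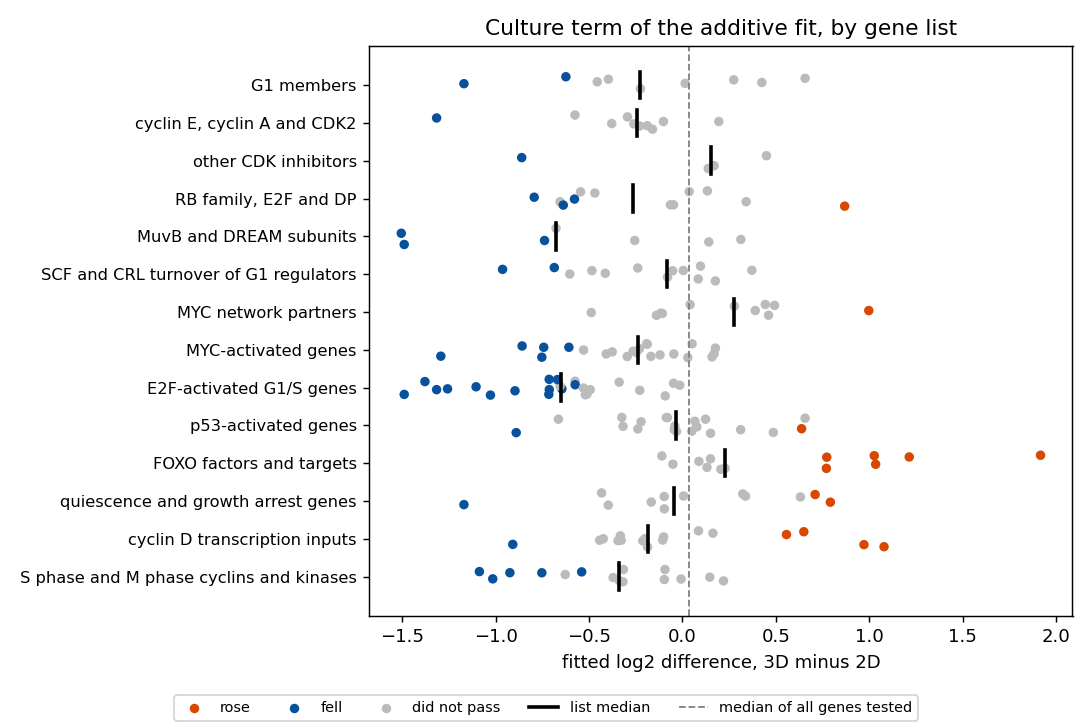
Fitted log2 difference of 3D minus 2D for each tested gene of the G1 members and 13 related lists (1 point per gene, vertical jitter for legibility), coloured by whether it rose, fell or did not pass, with the list median as a black bar. Blue points gather in the E2F list, with 13 of 24 genes, and orange points in the FOXO list, with 6 of 13.

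The list of quiescence and growth arrest genes also held CCND1, a member given above and itself a G1 cyclin. Of its 12 genes tested 2 rose, BTG1 by 0.71 and the repressor gene HBP1 by 0.79, and CCND1 was the 1 that fell. No higher call was left under 3 and no lower call under 5 of 10 alternatives. Among transcription factors and coactivators listed as inputs to cyclin D genes, 4 of 17 rose and 1 fell. FOSL1, an AP-1 subunit, fell by 0.91 ± 0.20 log2 (adjusted p 0.00786 in limma), a call lost under 4 of 10 alternatives. Its signals were 861 and 1366 in 2D and 676 and 494 in 3D for the empty-vector and ARHGAP8 lines. The main probe set of CCND1 had the same order of arrays, and the second CCND1 probe set did not. How many of all genes share that order was not counted. CTNNB1, beta-catenin, rose by 1.08 ± 0.18 in 3D and was the list's only gene that passed for the plasmid, rising by 0.98 ± 0.18 in the line labelled ARHGAP8 (adjusted p 0.0216 in limma). The list had no plasmid call under 8 of 10 alternatives, quantile and cyclic loess normalization among them. EGR1 rose in 3D by 0.97, MITF by 0.65 and ETS1 by 0.56. In the other 12 lists 0 genes passed for the plasmid.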

How the data were processed

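Per the submitters' processing notes, the authors made 1 MAS5 signal intensity per probe set and array, deposited on a linear scale; version and detection calls are not given in the sources used here. Per the labels, RNA went through a second round of amplification. Each array was set to the same 2% trimmed mean, which left the deposited intensity values nearly unchanged, and the median over all but 62 control probe sets, 72.3, became the floor. Probe sets were named by the platform annotation (41091 with 1 gene symbol, 1801 with several, 11721 with none), and symbols updated through RefSeq gene identifiers for 41043. A gene took its brightest probe set, and was tested if above the floor on at least 2 arrays. limma 3.58.1 (R 4.3.3) fitted the additive model, moderating variances along signal. Tests were two-sided, p-values Benjamini-Hochberg adjusted over 13239 genes, and calls made at 0.05. The residual has 1 degree of freedom and the prior 19.4. Each p-value tests the size of a term. Its error comes from the departure from additivity between single arrays, moderated by other genes, and not from the spread between cultures. The script was tested on simulated data. Named were all members and, per list, up to 4 passing genes per direction and up to 3 that did not pass. Those that did not pass were taken by largest difference, so they are not typical of their list. A few genes with smaller differences were added. Members and lists were chosen with earlier results of these data known. Alternatives changed scaling, floor, filter, probe set summary, variance model and arrays. Promoter windows are from RefSeq on GRCh38.p14 and matched 7 of the 10 genes. The number of arrays limits all precision.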

Additional observations from a re-analysis of the deposited data

Results flagged for a closer look

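Between the lines, the ratio of ARHGAP8 over empty vector had opposite signs in 2D and 3D for 5 of 9 members, a difference that was not tested. Over all genes tested 45% had opposite signs, so the count is near that share. The 3D minus 2D values were -1.68 log2 for CCND1, -1.03 for CDKN1A, 0.41 for CCND2, -0.34 for CDK6 and 0.34 for CCND3. Between the cultures, RB1 had opposite signs in the 2 lines, as did 35.2% of all genes, with a difference of 0.46, also not tested. Each rests on 1 array per group, and all use the ARHGAP8 3D array with raised ribosomal RNA control signals, whose part in them was not tested.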

How the results depend on the processing

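Of the 9 members, the culture calls were 2 as reported, 1 after cyclic loess normalization, in the fit over all probe sets and with robust variances, and 0 after quantile normalization, with the mean of probe sets, without a filter on dim genes and without an intensity trend, where the counts of members with an unadjusted p under 0.05 in limma were 5, 4, 4 and 4. CCND1 passed under 6 of 11 alternatives and CCND3 under 5, and both stayed below 0 under all 11. Reversed signs came only near 0: the culture value of CCND2 was 0.0261 with the mean of probe sets, and its line value, -0.00 as reported, was 0.0018 after cyclic loess, 0.00039 with the mean of probe sets and 0.0019 after quantile normalization; the line value of CDKN1A was -0.0345 with the floor doubled. No member passed for the plasmid under any of the alternatives run.

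Over all genes, 375 were called higher and 550 lower in 3D. Lower calls were 313 after cyclic loess, 295 after quantile normalization, 212 without a trend, 12 with the mean of probe sets and 0 without a filter; higher calls were 213 without a trend, 24 with the mean of probe sets and 0 without a filter. Without a filter none of the related lists had a call. In limma without a filter 894 genes higher and 982 lower had an unadjusted p under 0.05. For the plasmid 9 were called higher and 8 lower. With only genes measured above the floor on every array these were 28 and 33, with the lower floor 1 and 0, without a trend 1 and 0, and 0 and 0 after both other scalings, over all probe sets, with the mean of probe sets and without a filter. Lower plasmid calls were 4 with no floor and 4 with robust variances. Unadjusted p-values under 0.05 in limma at these zeros numbered 370 to 810 for higher and 379 to 878 for lower genes. Leaving out an array leaves 1 ratio per term and no test. The labels give no replicate numbers, and the additive fit itself compares the cultures within each line.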
